A study of Mus musculus with 26 samples.

Results

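Mouse embryonic fibroblasts (MEFs) that had been given the reprogramming factors Oct4, Sox2 and Klf4 (OSK) together with cJun were compared at day 3 and day 0 of the course, with day 1 as the point between. Of the 18198 genes in the expression table, the 13300 with a value of 10 or more in at least 2 of the 4 libraries of days 0 and 3 were described. The groups were OSK plus cJun at days 0, 1 and 3, and OSK alone at days 0 and 3 served as the course without added cJun. OSK alone at day 1 was drawn beside them in figures but not compared. MEFs at passage 2 and embryonic stem cells (ESCs; strain CBA/CaJ X C57BL/6J, passages 20 to 24) gave the end points. Each of these groups had 2 libraries. All reprogramming cells were MEFs infected with retrovirus made in PlatE packaging cells, and the labels name either iCD1 or a serum-based ESC medium without saying which library had which. MEF strain, mouse genotype and the moment that day 0 stands for were not stated. Nothing in the labels says that the libraries of a group came from separate cultures. The p-values therefore measure only the spread between libraries of the same group, which may be technical. That spread was estimated over all 26 libraries in 13 groups. These also include induced pluripotent stem cells, further days of both courses and OSK cells with a hairpin against Sap30.

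Oct4 (gene Pou5f1), Sox2 and Klf4 are transcription factors that can turn fibroblasts into pluripotent cells. The fibroblast programme, with its contractile cytoskeleton and collagen-rich matrix, is lost on the way, and epithelial and then pluripotency genes are gained. cJun (gene Jun) is a subunit of AP-1, a dimeric activator that binds enhancers of many fibroblast, stress and growth-factor genes, and it is known as a barrier to reprogramming when added to the factors. In bulk RNA of this kind, fewer cells of a type and less RNA per cell cannot be told apart.

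Values were normalised whole-number scores per gene with nearly the same distribution in every library. Totals ran from 4619641 to 4624161 over the 26 libraries, so they carry no sequencing depth, and the depth is unknown. The top 10 genes of every library shared one value, 21544, and a gene at that ceiling can rise no further: 20 of the 13300 genes were there in at least 1 of the 4 libraries and 3 in all 4. Replicates correlated across genes with Pearson coefficients from 0.9574 to 0.9652 on the log2 scale in the 5 reprogramming groups compared. A log2 fold is the difference of mean log2(value + 1), which understates the change of low genes. A gene was called when its adjusted p (limma, Benjamini-Hochberg over 16038 fitted genes) was below 0.05 and its log2 fold was at least 1 in size, and "rose" or "fell" is used only of called genes.

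The delivered factors were already high at day 0. Jun was 4616 and 5023 on day 0, 6929 and 6123 on day 1 and 7721 and 6929 on day 3, against 983 and 554 in MEFs and 875 and 620 on day 0 and 536 and 425 on day 3 with OSK alone. Each library of the course with added cJun lay above every MEF and OSK library, so this gene matched the labels. Pou5f1 was 6923 and 7715 on day 0, 21544 and 21544 on day 1 and 21544 and 11663 on day 3, reaching the ceiling, and 2 and 0 in MEFs. Sox2 was 3263 and 3608 on day 0, 6116 and 8974 on day 1 and 6116 and 6116 on day 3, and Klf4 was 3769 and 4302 on day 0, 6923 and 7715 on day 1 and 7715 and 6923 on day 3. None of these 4 genes was called at day 3 against day 0 by limma, and none had an unadjusted p below 0.05. The log2 fold of Jun was 0.60 ± 0.37 (SE, adjusted p = 0.303). The table does not separate delivered from endogenous transcripts of these genes. Among fibroblast markers, Col1a2 was at the ceiling in all 6 libraries of days 0, 1 and 3, where no change can be seen. Vim was 11673 and 11673 on day 0, 21544 and 21544 on day 1 and 21544 and 21544 on day 3. Pdgfra, Pdgfrb, Thy1 and Col1a1 went the other way and lay lower in both day 3 libraries than at day 0, with values given below. Several defining markers of pluripotent cells were at or near 0, with Nanog at 3 and 0 on day 0, 0 and 4 on day 1 and 0 and 1 on day 3, Dppa5a at 1 and 1 on day 0, 1 and 1 on day 1 and 1 and 0 on day 3 and Utf1 listed at 0 in all 6 libraries.

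By day 3, 2143 of the 13300 genes (16.1%) were called against day 0, with 1098 higher (8.26%) and 1045 lower (7.86%). Median log2 fold over the 13300 genes was -0.05. At day 1 against day 0, 1246 genes (9.37%) were called, 655 higher (4.92%) and 591 lower (4.44%). Between day 1 and day 3, 276 genes (2.08%) were called, 187 higher (1.41%) and 89 lower (0.669%). These 3 comparisons share libraries, so their values are given side by side and their overlap is not used. The entry filter itself makes some calls likely: 416 genes entered only through day 3, and 280 of them were called higher, while 379 entered only through day 0, and 239 of them were called lower. Without those genes 818 were higher and 806 lower. Some of the genes named here lost their call at day 3 when 1 of the 4 libraries was left out, each under limma with Benjamini-Hochberg adjustment. Without day 0 replicate 1 these were Bmp4, Cd34, Cdh1, Egfl7, Ezh1, Foxd1, Grhl3, H19, Hoxb7, Igf1, Myc, Nefm, Pdgfra, Pfkl, Slc16a3, Smad7, Snai1, Tead4, Tfcp2l1, Tgfbi, Thy1, Tubb3 and Zfp57, at adjusted p = 0.0551 to 0.219. Without day 0 replicate 2 they were Axin2, Egfl7, H19, Hoxb7, Hoxd3, Kdr, Mmp10, Mmp2, Mpeg1, Nefm, Runx1, Sall1, Tead4, Tgfbi, Thy1, Tubb3 and Zfp57, at adjusted p = 0.0525 to 0.32. Without day 3 replicate 1 they were Axin2, Egfl7, Foxd1, Grhl3, Hbegf, Hoxb7, Hoxd3, Igf1, Kdr, Mmp10, Mpeg1, Myc, Nefm, Nptx2, Pfkl, Runx1, Sall1, Smad7, Snai1, Tead4, Tet1, Tfcp2l1, Tgfbi, Tubb3 and Zfp57, at adjusted p = 0.0509 to 0.261. Without day 3 replicate 2 they were Cd34, Cdh1, Egfl7, Foxd1, Grhl3, H19, Hoxb7, Igf1, Mmp10, Mpeg1, Myc, Nefm, Pdgfra, Runx1, Sall1, Smad7, Tead4, Tgfbi, Thy1, Trim71, Tubb3 and Zfp57, at adjusted p = 0.051 to 0.265. A further 909 genes just missed the filter, with 1 value of 10 or more, and 1110 met it with exactly 2.

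By the naming rule the 12 largest decreases at day 3 included the smooth-muscle genes Tagln, Myl9, Acta2 and Cnn1 and the matrix genes Lox and Ltbp2. The 12 largest increases included the interferon-induced Gbp2, Gbp2b, Tgtp1, Tgtp2, Iigp1 and Oasl2 and the cornea, skin and muscle genes Aldh3a1, Tmprss11b and Myh1. The plot of 12 genes by library shows both kinds and their timing.

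**Figure D1:**
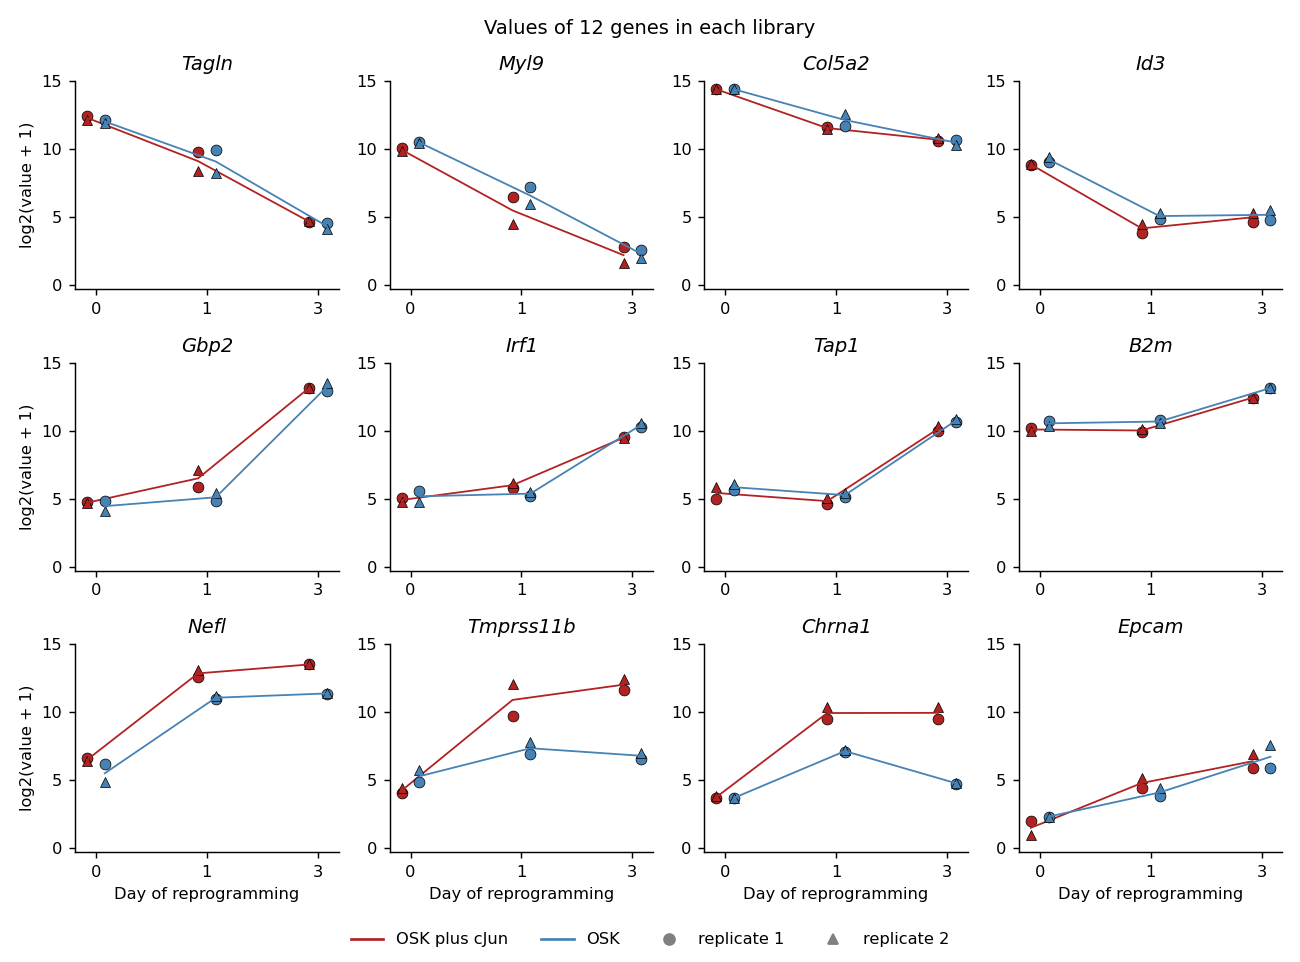
Values of 12 genes, as log2(value + 1), in each library against the day of reprogramming, for OSK plus cJun (red) and OSK (blue), with circles for replicate 1, triangles for replicate 2 and lines through the group means. Tagln, Myl9, Col5a2 and Id3 lie lower at day 3 than at day 0, Gbp2, Irf1, Tap1 and B2m lie higher at day 3 than at days 0 and 1, and Nefl, Tmprss11b, Chrna1 and Epcam lie above day 0 from day 1 on.

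Most genes of the contractile cytoskeleton fell. Of 17 smooth-muscle contractile genes, 15 fell by day 3 and none rose, with a median log2 fold of -3.31. Of the 17, 4 met the filter only through day 0, and of the other 13, 11 fell. Tagln, which encodes the actin-binding protein transgelin (chromosome 9, 45929619 to 45936058, minus strand, GENCODE on GRCm38), was 5483 and 4611 on day 0, 895 and 340 on day 1 and 24 and 25 on day 3. Every day 3 library lay below every day 1 library, and these below every day 0 library. The log2 fold at day 3 against day 0 was -7.62 ± 0.64 (SE, adjusted p = 5e-07). Myl9, a regulatory light chain of smooth-muscle myosin, was 1069 and 903 on day 0, 86 and 22 on day 1 and 6 and 2 on day 3. Myl9 fell with a log2 fold of -7.75 ± 0.76 (SE, adjusted p = 2.12e-06). Acta2, smooth-muscle actin, started at the ceiling and was 21544 and 21544 on day 0, 1253 and 424 on day 1 and 232 and 243 on day 3, so its log2 fold of -6.50 may understate the decrease. Cnn1, the actin-binding calponin, was 344 and 211 on day 0 and 17 and 2 on day 1 and was listed at 0 in both day 3 libraries (adjusted p = 9.08e-07).

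Further members were lower at day 3 than at day 0 without overlap. Actg2, a smooth-muscle actin of visceral muscle, was 1458 and 2035 on day 0, 203 and 102 on day 1 and 40 and 36 on day 3. Tpm1, tropomyosin along the actin filament, was 8987 and 7726 on day 0, 2078 and 1269 on day 1 and 1013 and 695 on day 3. Lmod1, a nucleator of actin filaments in smooth muscle, was 206 and 151 on day 0, 3 and 0 on day 1 and 5 and 2 on day 3, so that its day 1 and day 3 libraries overlapped, while those of Actg2 and Tpm1 did not. At day 1 against day 0, 14 of the 17 genes had fallen (median -2.36), and 3 fell further between day 1 and day 3 (median -0.95), Actg2, Myl9 and Tagln. Without day 1 replicate 1 or either day 3 library only Tagln of the 3 kept that call, with adjusted p = 0.193 to 0.49 for Actg2 and 0.0623 to 0.412 for Myl9, and with only the libraries compared none did. Leaving out 1 library at a time kept 15 decreases at day 3, whereas the 14 at day 1 dropped to 9 without day 1 replicate 2 or day 0 replicate 1.

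Matrix genes went down as a broad class. Of 34 matrix glycoproteins and proteoglycans, 25 fell by day 3 and none rose (median log2 fold -2.68), and of the 30 that did not enter only through day 0, 21 fell. Ltbp2, a microfibril protein that binds latent TGF-beta family complexes, was 428 and 367 on day 0, 66 and 31 on day 1 and 4 and 3 on day 3. Ltbp2 fell with a log2 fold of -6.47 ± 0.67 (SE, adjusted p = 3.27e-06). Fbln2, a fibulin of elastic fibres, was 4609 and 4007 on day 0, 2032 and 1792 on day 1 and 369 and 587 on day 3 and fell in both intervals. Vcan, the large proteoglycan versican, was 3784 and 2628 on day 0, 1799 and 1423 on day 1 and 652 and 912 on day 3. Vcan fell with a log2 fold of -2.03 ± 0.36 (SE, adjusted p = 0.000611). Fn1, fibronectin, started at the ceiling and was 21544 and 21544 on day 0, 11673 and 11673 on day 1 and 8988 and 5497 on day 3. Fn1 fell with a log2 fold of -1.62 ± 0.28 (SE, adjusted p = 0.000537). The fibrillin gene Fbn1 was 7728 and 8988 on day 0, 7728 and 7728 on day 1 and 6131 and 7728 on day 3 and the leucine-rich proteoglycan gene Lum 171 and 231 on day 0, 150 and 130 on day 1 and 145 and 114 on day 3, and neither was called. At day 1, 12 of the 34 had fallen, but only 4 or 5 passed without day 1 replicate 2 or without either day 0 library.

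Of 23 collagen genes, 12 fell and none rose, with a median log2 fold of -1.87. Col5a2, a chain of fibril-nucleating type V collagen, was 21544 and 21544 on day 0, 3162 and 2810 on day 1 and 1508 and 1799 on day 3. Col5a2 fell with a log2 fold of -3.71 ± 0.32 (SE, adjusted p = 4.74e-07). Col5a1, its partner chain, was 5015 and 6116 on day 0, 1536 and 1278 on day 1 and 446 and 520 on day 3 (adjusted p = 5.52e-06). Col1a1, the main chain of type I collagen, was 21544 and 21544 on day 0, 5488 and 5023 on day 1 and 1280 and 1388 on day 3, while its partner Col1a2 did not leave the ceiling, where no change can be seen. Col3a1, of the reticular fibres, was 7737 and 11677 on day 0, 3421 and 3784 on day 1 and 7737 and 7737 on day 3, with a dip at day 1 and no call at day 3 (adjusted p = 0.736). Col4a1, of basement membranes, was 3777 and 4019 on day 0 and 2473 and 2409 on day 3 and was not called (adjusted p = 0.0598).

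The enzymes that hydroxylate and crosslink collagen went the same way, with 11 of 15 lower and none higher at day 3 (median -1.52). Lox, the lysyl oxidase that starts crosslinks, was 5038 and 4629 on day 0, 483 and 327 on day 1 and 45 and 45 on day 3. Lox fell with a log2 fold of -6.71 ± 0.91 (SE, adjusted p = 6.68e-05). Loxl2, a related oxidase, was 3275 and 2623 on day 0, 1036 and 793 on day 1 and 218 and 177 on day 3 and fell in both intervals. Of 25 matrix proteases and their inhibitors, 11 fell and 1 rose. Plau, the urokinase-type plasminogen activator, was 373 and 269 on day 0, 72 and 54 on day 1 and 33 and 31 on day 3. Mmp2, a gelatinase, was 1202 and 1676 on day 0, 460 and 562 on day 1 and 411 and 311 on day 3. Mmp2 fell with a log2 fold of -1.99 ± 0.45 (SE, adjusted p = 0.00471). The one that rose was Mmp10, stromelysin 2, at 6 and 0 on day 0, 33 and 30 on day 1 and 31 and 23 on day 3. Timp1, an inhibitor of metalloproteinases, was 1827 and 1242 on day 0, 3275 and 2473 on day 1 and 1737 and 1633 on day 3, with overlapping days 0 and 3. Omitting single libraries left 21 to 24 glycoprotein genes, 9 or 10 collagen genes, 9 crosslinking genes and 8 or 9 protease genes lower at day 3.

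**Figure D2:**
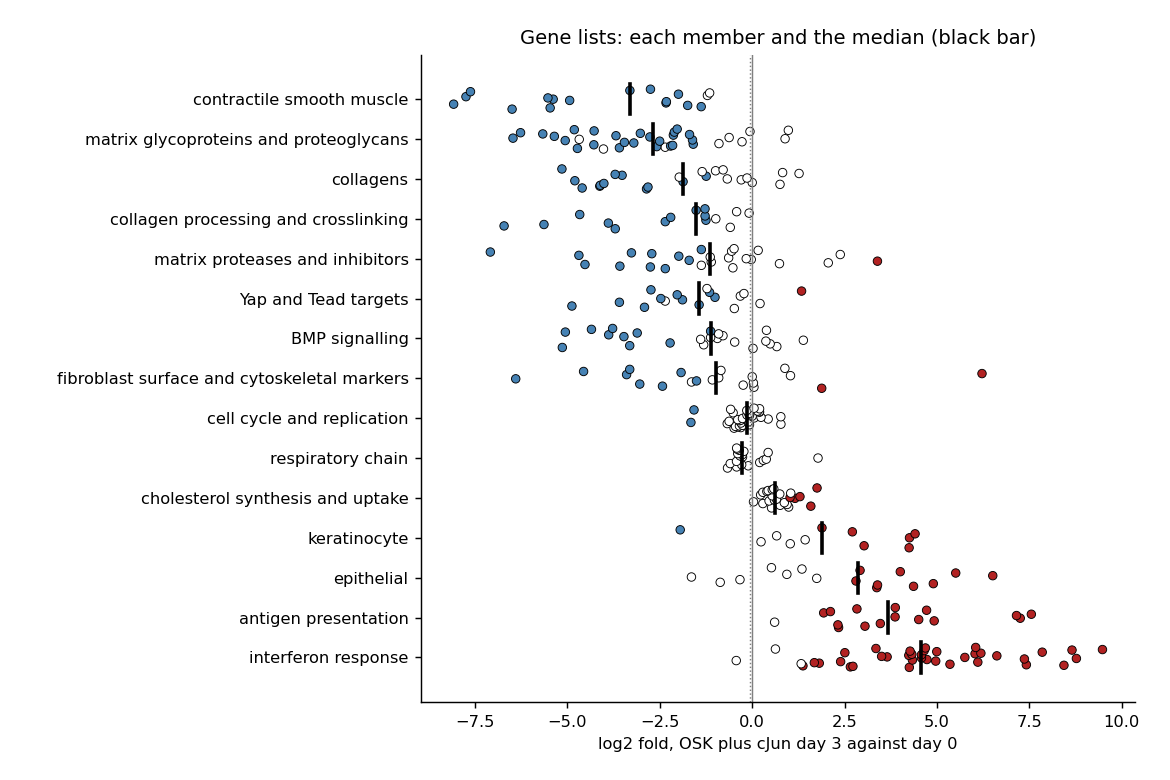
Log2 fold at day 3 against day 0 of OSK plus cJun for each list member among the 13300 genes (1 point per gene, red for called higher, blue for called lower, white for not called), with the list median as a black bar and the median of all 13300 genes as a dotted line. Contractile and matrix lists lie left of 0 with medians down to -3.31, and the interferon and antigen presentation lists lie right of it with medians of 4.58 and 3.67.

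Genes on lists of several signalling pathways fell in part. Counts for the Yap, TGF-beta, BMP, Wnt, IGF and FGF lists are to be read against 7.86% lower and 8.26% higher over all genes. Yap and Taz with Tead factors relay cell tension to genes such as Ccn1 and Ankrd1. Of 17 such targets, 10 fell and 1 rose at day 3 (median -1.44). Ankrd1 was 387 and 115 on day 0, 25 and 7 on day 1 and 12 and 3 on day 3, a log2 fold of -4.88 ± 0.81 (SE, adjusted p = 0.000366), and Ccn1 was 2793 and 3152 on day 0, 499 and 316 on day 1 and 237 and 253 on day 3. Ccn1 fell with a log2 fold of -3.59 ± 0.67 (SE, adjusted p = 0.0012). Ccn2 was 7715 and 4609 on day 0, 1792 and 1096 on day 1 and 1940 and 700 on day 3 and missed the threshold (adjusted p = 0.0572), although its day 3 libraries lay below those of day 0. The member that rose was Tead4, one of the Tead factors themselves, at 222 and 206 on day 0, 650 and 645 on day 1 and 560 and 523 on day 3.

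In the TGF-beta list, 8 of 24 genes fell and 1 rose (5 fell without day 3 replicate 1). Among ligands, Tgfb2 was 221 and 192 on day 0, 42 and 26 on day 1 and 39 and 23 on day 3 and Tgfb3 361 and 276 on day 0, 64 and 60 on day 1 and 69 and 66 on day 3, and both fell, whereas Tgfb1 was 284 and 231 on day 0, 316 and 321 on day 1 and 207 and 285 on day 3 and was not called (adjusted p = 0.971). Inhba, the subunit of activin A, was 838 and 464 on day 0, 149 and 74 on day 1 and 18 and 21 on day 3. Inhba fell with a log2 fold of -4.93 ± 0.57 (SE, adjusted p = 1.05e-05), with no overlap between any 2 days. Smad7, a feedback inhibitor of the receptors, was 289 and 218 on day 0, 137 and 99 on day 1 and 73 and 73 on day 3 and fell as well. The gene that rose was Tgfbi, a matrix protein induced by TGF-beta, at 158 and 109 on day 0, 741 and 791 on day 1 and 654 and 682 on day 3. Tgfbi rose with a log2 fold of 2.34 ± 0.71 (SE, adjusted p = 0.0294).

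In the BMP list, 10 of 23 genes fell and none rose, and 6 did so without day 0 replicate 1. Of the 23, 5 met the filter only through day 0, and of the other 18, 5 fell. Bmp4, a ligand, was 129 and 66 on day 0, 37 and 19 on day 1 and 10 and 7 on day 3. Bmp4 fell with a log2 fold of -3.31 ± 0.78 (SE, adjusted p = 0.00562). The direct targets Id1 and Id3, inhibitors of helix-loop-helix factors, reached their low level by day 1. Id1 was 417 and 339 on day 0, 39 and 26 on day 1 and 34 and 32 on day 3, and Id3 was 449 and 483 on day 0, 13 and 22 on day 1 and 24 and 39 on day 3. Id3 was below the midpoint of days 0 and 3 at day 1, by a log2 fold of -2.76 ± 0.67 (SE, adjusted p = 0.0437), a call lost without any 1 of the 6 libraries (adjusted p = 0.0738 to 0.351).

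Of 25 Wnt pathway genes, 9 fell and 3 rose, and only 1 rose without day 3 replicate 1 or day 0 replicate 2. Over all genes 7.86% fell and 8.26% rose, and the counts of this paragraph stand against these shares. Wnt2, a ligand, was 180 and 265 on day 0, 47 and 32 on day 1 and 6 and 13 on day 3. Wnt2 fell with a log2 fold of -4.47 ± 0.65 (SE, adjusted p = 9.64e-05). The genes that rose included Axin2, a negative-feedback target (33 and 25 on day 0, 88 and 78 on day 1 and 126 and 98 on day 3), and Notum, a secreted enzyme that inactivates Wnt proteins (2 and 3 on day 0, 22 and 53 on day 1 and 42 and 109 on day 3). In the IGF axis, 7 of 14 genes fell, 4 without day 3 replicate 2, and 1 rose. Igfbp7, a binding protein of low affinity, was 1140 and 1376 on day 0, 348 and 266 on day 1 and 37 and 23 on day 3. Igfbp7 fell with a log2 fold of -5.38 ± 0.54 (SE, adjusted p = 2.52e-06). Igfbp3, the main carrier of circulating IGF, was the one that rose, at 3407 and 2711 on day 0, 7717 and 6925 on day 1 and 21544 and 11664 on day 3. Igfbp3 rose with a log2 fold of 2.38 ± 0.42 (SE, adjusted p = 0.00063). Of 26 FGF and receptor-ligand genes, 7 fell and 6 rose, and these counts dropped to as few as 4 and 3 when single libraries were left out.

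Some fibroblast surface markers and transcription factors fell, to be read against 7.86% lower and 8.26% higher over all genes. Of 20 surface and cytoskeletal markers, 8 fell and 2 rose (median -0.99). Pdgfrb, a platelet-derived growth factor receptor, was 252 and 264 on day 0, 42 and 32 on day 1 and 9 and 11 on day 3. Pdgfrb fell with a log2 fold of -4.56 ± 0.56 (SE, adjusted p = 1.75e-05). Pdgfra, its relative, was 202 and 143 on day 0, 55 and 63 on day 1 and 51 and 38 on day 3. Pdgfra fell with a log2 fold of -1.92 ± 0.49 (SE, adjusted p = 0.00936). Thy1, a surface glycoprotein used to sort fibroblasts, was 1402 and 896 on day 0, 1077 and 505 on day 1 and 264 and 47 on day 3, with days 0 and 1 overlapping and both day 3 libraries lower. The 2 that rose were Nt5e, the surface enzyme CD73, at 45 and 90 on day 0, 950 and 1313 on day 1 and 4616 and 5023 on day 3, a log2 fold of 6.22 ± 0.37 (SE, adjusted p = 2.22e-08), and Cd34, a sialomucin, at 521 and 973 on day 0, 1542 and 2316 on day 1 and 2266 and 3040 on day 3. Of 29 mesenchymal transcription factors, 5 fell and 2 rose at day 3 (median -1.08), the increases being a share near that over all genes. Snai1, a repressor of Cdh1, was 84 and 55 on day 0, 46 and 28 on day 1 and 11 and 18 on day 3. Snai1 fell with a log2 fold of -2.19 ± 0.51 (SE, adjusted p = 0.00508). Prrx1 (3419 and 2042 on day 0, 2132 and 1774 on day 1 and 1593 and 968 on day 3), Zeb1 (320 and 456 on day 0, 353 and 295 on day 1 and 270 and 310 on day 3) and Twist1 (406 and 378 on day 0, 885 and 896 on day 1 and 764 and 519 on day 3) were not called. Runx1, a factor of blood and mesenchyme, was 90 and 47 on day 0, 109 and 94 on day 1 and 284 and 215 on day 3, an increase of 1.91 ± 0.59 (SE, adjusted p = 0.0317), and Foxd1, a forkhead factor, was 35 and 80 on day 0, 109 and 205 on day 1 and 344 and 400 on day 3 and rose too. The 5 decreases dropped to 3 without either day 3 library and to 2 without day 0 replicate 1.

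Of 12 AP-1 genes besides Jun, 1 fell and none rose at day 3, against 7.86% lower and 8.26% higher over all genes, which shows nothing particular to them. That gene was Fosl2, a Fos-family partner, at 1066 and 1109 on day 0, 444 and 329 on day 1 and 277 and 253 on day 3. Fosl2 fell with a log2 fold of -2.03 ± 0.27 (SE, adjusted p = 4.12e-05). Fosl1, another partner, was 338 and 138 on day 0, 706 and 460 on day 1 and 427 and 326 on day 3, Junb was 384 and 296 on day 0, 296 and 245 on day 1 and 309 and 156 on day 3 and Jund was 567 and 656 on day 0, 339 and 500 on day 1 and 759 and 720 on day 3, none of them called. Among 19 growth-factor immediate early genes, which respond within minutes to serum, 5 fell and none rose, and 3 fell when either day 3 library or day 0 replicate 1 was left out. Myc, a driver of growth and not among the delivered factors, was 857 and 495 on day 0, 267 and 172 on day 1 and 92 and 77 on day 3. Myc fell with a log2 fold of -2.94 ± 0.83 (SE, adjusted p = 0.0187). Hbegf, an EGF receptor ligand, was 662 and 549 on day 0, 431 and 486 on day 1 and 94 and 147 on day 3. Hbegf fell with a log2 fold of -2.35 ± 0.52 (SE, adjusted p = 0.0036). Egr1 was 950 and 697 on day 0, 1001 and 429 on day 1 and 143 and 51 on day 3 and missed the threshold (adjusted p = 0.0738). Sap30, a subunit of the Sin3 corepressor, was 77 and 107 on day 0, 53 and 47 on day 1 and 62 and 60 on day 3 and was not called (adjusted p = 0.253).

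The increases were led by genes induced by interferons, the cytokines of antiviral defence. Of 39 interferon-response genes, 36 rose by day 3 and none fell (median log2 fold 4.58). Of these 39, 13 met the filter only through day 3, and of the other 26, 23 rose. Only 4 had risen by day 1 (median 0.42), whereas 34 rose between day 1 and day 3 (median 4.05). Gbp2, a guanylate-binding protein that attacks pathogen vacuoles (chromosome 3, 142620602 to 142638008, plus strand), was 26 and 24 on day 0, 58 and 136 on day 1 and 8993 and 8993 on day 3. Both day 3 libraries lay far above those of days 0 and 1, with a log2 fold of 8.44 ± 1.04 (SE, adjusted p = 2.69e-05). Igtp, an immunity-related GTPase, was 8 and 9 on day 0, 14 and 27 on day 1 and 1480 and 1651 on day 3, and its log2 fold between day 1 and day 3 was 6.25 ± 1.04 (SE, adjusted p = 0.00317). Without day 1 replicate 1 that increase of Igtp missed the threshold (adjusted p = 0.0625).

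The list spans transcription factors and effectors. Irf7, which amplifies type I interferon genes, was 3 and 7 on day 0, 22 and 22 on day 1 and 356 and 260 on day 3 and was among the 4 already higher at day 1 (adjusted p = 0.0112), a call lost without day 0 replicate 1 (adjusted p = 0.14), day 1 replicate 1 (0.0573) or day 1 replicate 2 (0.073). Irf1, which activates interferon-response and class I genes, was 32 and 26 on day 0, 55 and 71 on day 1 and 723 and 703 on day 3. Oas2, which makes the 2-5A activator of RNase L, was 4 and 3 on day 0, 7 and 6 on day 1 and 325 and 261 on day 3. Oas2 rose with a log2 fold of 6.03 ± 0.24 (SE, adjusted p = 5.88e-11). Ifit1, which binds foreign RNA ends, was 4 and 6 on day 0, 6 and 6 on day 1 and 200 and 169 on day 3, and Isg15, a ubiquitin-like modifier, was 10 and 8 on day 0, 6 and 7 on day 1 and 215 and 162 on day 3. In each of Irf1, Oas2, Ifit1 and Isg15 both day 3 libraries lay above all libraries of days 0 and 1.

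Several of the largest increases in the whole comparison belonged to this group. Iigp1, an immunity-related GTPase, was listed at 0 in both day 0 libraries, 22 and 10 on day 1 and 604 and 315 on day 3 (adjusted p = 7.42e-05). Tgtp1 was 14 and 21 on day 0, 16 and 45 on day 1 and 6929 and 7721 on day 3, and Tgtp2, its near-identical neighbour, was listed at 0 at day 0 and was 604 and 839 on day 3. Reads of Tgtp1 and Tgtp2, of Gbp2 and Gbp2b (12 and 6 on day 0 and 3041 and 2132 on day 3) and of Apol9a and Apol9b may have been divided between the copies, so the split within each pair is uncertain. Oasl2, an OAS-like protein, was 1 and 8 on day 0, 10 and 19 on day 1 and 1025 and 930 on day 3. Oasl2 rose with a log2 fold of 7.85 ± 0.65 (SE, adjusted p = 5e-07). Without single libraries 33 to 35 of the 39 genes still rose by day 3 and 27 to 34 between day 1 and day 3, while the 4 early increases dropped to none without day 1 replicate 2 and to 1 without day 0 replicate 1.

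Antigen presentation on class I molecules rose with them. Of 16 such genes, 15 rose by day 3 and none fell (median 3.67), and of the 13 that did not enter only through day 3, 12 rose. None was called at day 1, with a median of 0.47, and 14 rose between day 1 and day 3. B2m, the invariant light chain, was 1177 and 1001 on day 0, 976 and 1088 on day 1 and 5489 and 5489 on day 3. B2m rose with a log2 fold of 2.34 ± 0.37 (SE, adjusted p = 0.000215). H2-K1, a class I heavy chain with close paralogs, was 200 and 203 on day 0, 274 and 301 on day 1 and 1651 and 3034 on day 3. Tap1, of the peptide transporter, was 30 and 58 on day 0, 23 and 32 on day 1 and 990 and 1278 on day 3. Tap1 rose with a log2 fold of 4.72 ± 0.62 (SE, adjusted p = 4.56e-05). Psmb9, a subunit of the immunoproteasome, was listed at 0 in both day 0 libraries, 0 and 5 on day 1 and 139 and 251 on day 3 (adjusted p = 0.000175), and its partner Psmb8 was 6 and 1 on day 0, 7 and 6 on day 1 and 427 and 660 on day 3. Nlrc5, the transactivator of class I genes, was 3 and 2 on day 0, 11 and 19 on day 1 and 555 and 501 on day 3. Nlrc5 rose with a log2 fold of 7.25 ± 1.09 (SE, adjusted p = 0.000171). Leaving out 1 library kept 14 of these genes higher at day 3, and between day 1 and day 3 the count dropped to 9 without day 3 replicate 2 and 6 without day 1 replicate 1.

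Macrophages also carry many of these transcripts, so their markers were read beside them. Over 20 macrophage and blood genes the summed value was 952 and 267 on day 0, 757 and 784 on day 1 and 1324 and 1327 on day 3. Between 2 and 6 of the 20 genes were at 0 in each of these libraries. Of the 12 that met the filter, 3 rose and none fell by day 3, and over all 19 in the fit 3 rose and 2 fell. Cd68, a lysosomal protein, was 65 and 92 on day 0, 313 and 599 on day 1 and 688 and 883 on day 3. Mpeg1, a pore-forming protein of phagocytes, was 52 and 9 on day 0, 27 and 13 on day 1 and 253 and 290 on day 3. The third was Hba-a1, a haemoglobin chain, at 0 and 0 on day 0, 0 and 24 on day 1 and 30 and 31 on day 3. Ptprc, the pan-leukocyte antigen, was 81 and 24 on day 0, 56 and 13 on day 1 and 66 and 27 on day 3, Lyz2 was 361 and 34 on day 0, 166 and 26 on day 1 and 154 and 18 on day 3, Adgre1 was 37 and 21 on day 0, 19 and 6 on day 1 and 12 and 3 on day 3 and Csf1r was 57 and 11 on day 0, 10 and 3 on day 1 and 15 and 3 on day 3, and none of these was called. Each of the latter was higher in replicate 1 than in replicate 2 on every day. The part of these cells in the interferon result was not tested.

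**Figure D3:**
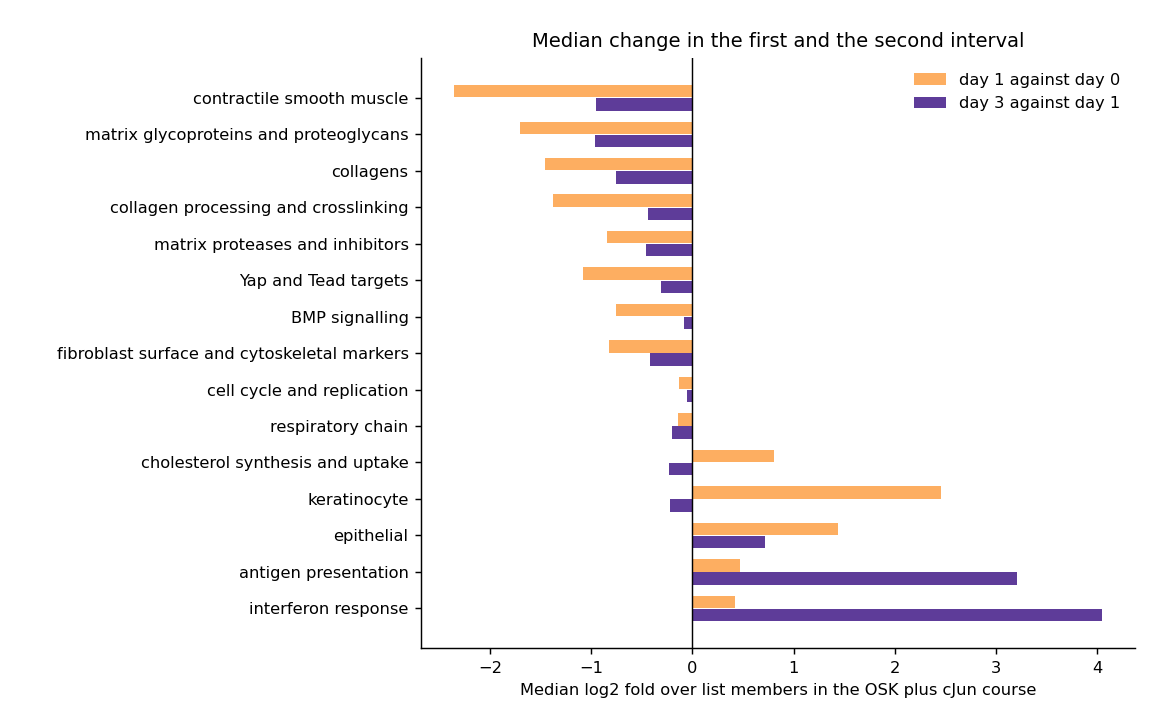
Median log2 fold of each gene list in the OSK plus cJun course between day 0 and day 1 (orange) and between day 1 and day 3 (purple). Contractile, matrix and collagen lists had their larger decrease in the first interval, and the interferon list moved by 0.42 in the first interval and 4.05 in the second.

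Other increases began by day 1. Of 29 epithelial genes in the fit, 12 rose by day 3 and none fell (median 1.09). Of these, 16 met the filter and 9 of the 16 rose, but 8 met it only through day 3, and all 8 are among the 9, so that count is partly set by the filter. By day 1, 6 of the 16 had risen. Epcam, an adhesion molecule of epithelia, was 3 and 1 on day 0, 21 and 34 on day 1 and 59 and 118 on day 3. Epcam rose with a log2 fold of 4.90 ± 0.63 (SE, adjusted p = 3.56e-05). Cdh1, E-cadherin, was 2 and 5 on day 0, 15 and 18 on day 1 and 34 and 54 on day 3. Cdh1 rose with a log2 fold of 3.37 ± 0.87 (SE, adjusted p = 0.0109). Krt8, a keratin of simple epithelia, was 7 and 1 on day 0, 24 and 41 on day 1 and 282 and 468 on day 3, and its usual partner Krt18 was 14 and 3 on day 0, 27 and 20 on day 1 and 26 and 24 on day 3 and was not called. Ocln, of tight junctions, was 2 and 1 on day 0, 13 and 19 on day 1 and 32 and 46 on day 3. In all 5 of these genes both day 3 libraries lay above both day 0 libraries.

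Of 17 keratinocyte genes in the fit, 7 rose and 1 fell by day 3. Among the 11 that met the filter, 4 of them only through day 3, 6 were higher and 1 lower at day 3, and 7 higher at day 1 (4 without day 1 replicate 1 or either day 0 library). Krt6a, a keratin of activated epidermis, was 6 and 5 on day 0, 277 and 322 on day 1 and 104 and 145 on day 3, higher at day 1 than at the midpoint of days 0 and 3 by 3.40 ± 0.69 (SE, adjusted p = 0.0149). That peak was not called without either day 1 library (adjusted p = 0.115 and 0.157). Tgm3, a transglutaminase of the cornified envelope and not on the list, was 0 and 6 on day 0, 146 and 357 on day 1 and 397 and 305 on day 3. Tgm3 rose with a log2 fold of 7.04 ± 0.94 (SE, adjusted p = 5.69e-05). Cnfn, cornifelin, was listed at 0 in both day 0 libraries, 75 and 50 on day 1 and 17 and 19 on day 3 (adjusted p = 0.00392). Grhl3, a transcription factor of the epidermal barrier counted with the epithelial genes, was 0 and 3 on day 0, 18 and 22 on day 1 and 13 and 13 on day 3 and rose. The defining basal markers were low or not called: Krt14 was 10 and 6 on day 0, 94 and 28 on day 1 and 32 and 16 on day 3 and was not called at day 3 (adjusted p = 0.216), Trp63 was 2 and 2 on day 0, 8 and 14 on day 1 and 16 and 5 on day 3 and did not meet the filter, and Krt5 did not enter the fit.

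Of 21 neuronal genes in the fit, 7 rose and 2 fell, with a median of 0. Of the 13 that met the filter, 3 of them only through day 3, 6 rose and 1 fell. Nefl, the light neurofilament subunit, was 97 and 83 on day 0, 6124 and 8981 on day 1 and 11667 and 11668 on day 3. Nefl rose with a log2 fold of 7.01 ± 0.77 (SE, adjusted p = 9.14e-06). Nefm, the medium subunit, was 69 and 49 on day 0, 670 and 468 on day 1 and 850 and 659 on day 3, and Tubb3, a neuronal tubulin, was 238 and 319 on day 0, 1386 and 1175 on day 1 and 628 and 842 on day 3, and both rose. Other neuronal markers were not called higher: Map2 was 345 and 225 on day 0, 298 and 227 on day 1 and 240 and 241 on day 3, Stmn2 was 2154 and 2549 on day 0, 3040 and 1950 on day 1 and 1355 and 1159 on day 3, and Snap25, at 4 and 8 on day 0, 0 and 2 on day 1 and 0 and 0 on day 3, did not meet the filter. Nppc, the C-type natriuretic peptide, was 2 and 0 on day 0, 240 and 411 on day 1 and 290 and 214 on day 3, the largest increase at day 1 by the naming rule, with a log2 fold of 7.51 ± 0.75 (SE, adjusted p = 1.01e-05).

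Single genes of other tissues made up much of the rest of the largest increases. Aldh3a1, an aldehyde dehydrogenase abundant in the cornea (chromosome 11, 61207537 to 61218421, plus strand), was 9 and 46 on day 0, 864 and 2614 on day 1 and 11664 and 21544 on day 3. It rose in steps that did not overlap, by 6.12 ± 0.74 (SE, adjusted p = 6.43e-05) at day 1 and 9.51 ± 0.74 (SE, adjusted p = 3.23e-07) at day 3 against day 0, and 1 day 3 library was at the ceiling. Avil, the actin-severing advillin, was 6 and 6 on day 0, 218 and 962 on day 1 and 2353 and 2939 on day 3. Avil rose with a log2 fold of 8.55 ± 0.70 (SE, adjusted p = 5e-07). Npy2r, a neuropeptide Y receptor, was 7 and 7 on day 0, 209 and 188 on day 1 and 1828 and 1156 on day 3, and Myh1, a fast skeletal myosin chain, was 8 and 3 on day 0, 318 and 128 on day 1 and 1797 and 644 on day 3. Of 5 skeletal and cardiac muscle genes that met the filter, 1 rose (Chrna1) and 1 fell. Ntrk2, the receptor of the neurotrophin BDNF, was 14 and 1 on day 0, 467 and 389 on day 1 and 1153 and 547 on day 3. Ccr2, a chemokine receptor, was listed at 0 at day 0 and was 115 and 120 on day 1 and 152 and 104 on day 3. Of 5 endothelial genes that met the filter, 1 rose and 3 fell (none rose without day 3 replicate 1 or day 0 replicate 2). Kdr, the VEGF receptor of endothelium, was the one that rose, at 49 and 14 on day 0, 976 and 683 on day 1 and 957 and 317 on day 3. Emcn, Egfl7 and Flt1 fell, and Pecam1, a defining endothelial marker, was 2 and 2 on day 0, 1 and 6 on day 1 and 1 and 5 on day 3.

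Some stress and lipid genes rose, to be read against 8.26% higher and 7.86% lower over all genes. Of 16 oxidative-stress genes 5 rose and 1 fell, with 2 rising without day 3 replicate 1 or day 0 replicate 2. The metallothioneins, small metal-binding proteins, were among them: Mt2 was 27 and 9 on day 0, 365 and 325 on day 1 and 741 and 617 on day 3, a log2 fold of 5.34 ± 0.63 (SE, adjusted p = 1.67e-05), and Mt1 was 69 and 44 on day 0, 378 and 442 on day 1 and 624 and 661 on day 3. Hmox1, a classic target of the stress factor NRF2, was 316 and 156 on day 0, 281 and 206 on day 1 and 271 and 176 on day 3 and was not called. Of 24 cholesterol genes, 5 rose and none fell by day 3 (3 without day 0 replicate 1 and 8 without day 0 replicate 2). Dhcr7, the last enzyme of the pathway, was 111 and 167 on day 0, 359 and 475 on day 1 and 288 and 586 on day 3. Lpl, the lipase that frees fatty acids from lipoproteins, was 826 and 497 on day 0, 7733 and 8993 on day 1 and 4319 and 5038 on day 3, a log2 fold of 2.86 ± 0.37 (SE, adjusted p = 3.46e-05) with its highest level at day 1.

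Genes that peaked or dipped at day 1 were looked for by comparing day 1 with the midpoint of days 0 and 3. Over the 16038 fitted genes, 238 were called (1.48%), 124 higher at day 1 (0.773%) and 114 lower (0.711%). Centred on 9 housekeeping genes, the numbers were 77 higher and 111 lower. Rgs5, a regulator of G-protein signalling known from pericytes, was 46 and 48 on day 0, 2949 and 3419 on day 1 and 2042 and 500 on day 3, above the midpoint by 3.85 ± 0.77 (SE, adjusted p = 0.0149). Nos3, endothelial nitric oxide synthase, was 2 and 2 on day 0, 65 and 206 on day 1 and 8 and 20 on day 3, above it by 4.19 ± 0.76 (SE, adjusted p = 0.00758). Rapgef5, an exchange factor for Rap proteins, was 2 and 8 on day 0, 203 and 303 on day 1 and 38 and 52 on day 3. All 3 had both day 1 libraries above every library of the other days. Among the dips, Serping1, the inhibitor of complement C1, was 50 and 59 on day 0, 18 and 10 on day 1 and 463 and 485 on day 3, below the midpoint by -3.49 ± 0.39 (SE, adjusted p = 0.000275), and Spa17, a sperm surface protein, was 55 and 68 on day 0, listed at 0 in both day 1 libraries and 42 and 23 on day 3. These calls were lost without either day 1 library for Rgs5 and Spa17, without day 3 replicate 2 for Rgs5, and without day 1 replicate 2 for Nos3, at adjusted p = 0.0532 to 0.166.

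The decreases outside the lists were also large. Rtl3, a gene derived from a retrotransposon, was 213 and 369 on day 0, 2 and 1 on day 1 and 0 and 2 on day 3, and Cacna1g, a T-type calcium channel, was 141 and 172 on day 0, 14 and 10 on day 1 and 0 and 1 on day 3. Siglecg, a sialic-acid receptor of B cells, was 430 and 196 on day 0, 15 and 3 on day 1 and listed at 0 in both day 3 libraries. Ptx3, a secreted pattern-recognition protein, was 534 and 420 on day 0, 12 and 8 on day 1 and 9 and 6 on day 3, complete by day 1 with a log2 fold of -5.46 ± 0.67 (SE, adjusted p = 5.62e-05). Slc38a4, an imprinted amino acid transporter, was 1163 and 1088 on day 0, 393 and 325 on day 1 and 39 and 47 on day 3, and Flt1, the decoy-like VEGF receptor, was 288 and 145 on day 0, 193 and 158 on day 1 and 22 and 24 on day 3, both with decreases in the second interval (adjusted p = 0.0151 and adjusted p = 0.00638). These decreases missed the threshold for Slc38a4 without any 1 of the 4 libraries (adjusted p = 0.061 to 0.16) and for Flt1 without day 1 replicate 1 or either day 3 library (adjusted p = 0.0534 to 0.1).

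Promoter sequences were read for genes of the groups above, because interferon, serum-response, AP-1 and Tead factors bind short known motifs. RefSeq (GRCm38.p6) gave a window of 250 bases before to 50 after the start for 10118 of the 13300 genes. The upstream 250 bases of 4 genes are printed 5′ to 3′ on the gene's strand, with the motif in capitals: for Gbp2 and Igtp, which rose late, the interferon element GAAANNGAA or its reverse complement, for Myl9, which fell, a CArG box, the site of serum response factor, and for Chrna1, which rose early, the AP-1 motif TGANTCA.
Gbp2, chr3:142620413-142620662, plus strand: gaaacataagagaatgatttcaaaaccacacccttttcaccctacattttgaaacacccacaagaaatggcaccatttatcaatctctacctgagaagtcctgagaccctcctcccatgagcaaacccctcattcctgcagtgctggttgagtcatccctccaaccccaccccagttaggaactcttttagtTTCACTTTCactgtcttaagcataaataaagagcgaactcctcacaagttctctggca
Igtp, chr11:58199306-58199555, plus strand: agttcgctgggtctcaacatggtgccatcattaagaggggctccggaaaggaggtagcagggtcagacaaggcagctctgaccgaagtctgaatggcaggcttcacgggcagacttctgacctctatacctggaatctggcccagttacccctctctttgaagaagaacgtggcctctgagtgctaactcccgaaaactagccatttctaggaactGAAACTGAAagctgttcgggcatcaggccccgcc
Myl9, chr2:156775214-156775463, plus strand: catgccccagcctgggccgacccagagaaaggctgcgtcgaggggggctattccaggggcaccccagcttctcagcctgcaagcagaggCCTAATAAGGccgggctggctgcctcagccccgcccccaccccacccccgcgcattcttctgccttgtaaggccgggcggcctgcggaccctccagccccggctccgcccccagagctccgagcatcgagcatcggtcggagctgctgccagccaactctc
Chrna1, chr2:73580339-73580588, minus strand: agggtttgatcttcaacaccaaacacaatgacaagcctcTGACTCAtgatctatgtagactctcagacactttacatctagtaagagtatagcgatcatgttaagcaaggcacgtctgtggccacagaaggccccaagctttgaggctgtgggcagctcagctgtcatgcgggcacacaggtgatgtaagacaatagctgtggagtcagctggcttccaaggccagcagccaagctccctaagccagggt

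The windows are placed by RefSeq starts. For Gbp2 and Myl9 the RefSeq start lies downstream of the GENCODE start, so the end of the window falls inside the GENCODE gene, for Gbp2 with the capitals. Both strands were searched, and a match is a string of letters, not a measured site. The interferon element stood in 8.49% of all 10118 windows, in 12.9% of the 835 windows of genes higher at day 3 and in 31.8% of the 148 windows of genes that rose between day 1 and day 3. In windows of genes higher at day 1 it stood in 9.67% of 517. TGANTCA stood in 6.44% of all windows, 13.9% of those of genes higher at day 1 and 12.3% of those higher at day 3. It stood in 8.28% of those lower at day 1 and 8.45% of the 781 of genes lower at day 3. Between day 1 and day 3 it stood in 12.8% for genes that rose and 15.1% of 73 for those that fell. In the comparison of courses below, it stood in 10.8% of 74 windows for changes more positive with cJun. For changes more negative with cJun it stood in 16.4% of 55. The related element TGACGTCA stood in 3.51% of all windows, 1.8% of those of genes higher and 2.69% of those of genes lower at day 3. A CArG box stood in 1.61% of all windows, in 5.52% of the 435 of genes lower at day 1 and in 3.59% of those lower at day 3. For genes higher at day 1 it stood in 1.55%, and for genes higher at day 3 in 2.04%. The Tead motif GGAATG stood in 14.6% of all windows, 24.1% of those lower at day 1 and 20.0% of those lower at day 3. For genes higher at day 1 it stood in 14.5%, and for genes higher at day 3 in 13.7%. Between the courses it stood in 18.9% for changes more positive with cJun and 20.0% for those more negative. The window of Gbp2 also held TGANTCA and GGAATG, whereas that of Tmprss11b held none of the 5 motifs. These shares were not tested.

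The same interval was then set against OSK alone, whose day 0 and day 3 libraries are not shared with the course with cJun. With OSK, 1372 of the 16038 fitted genes (8.55%) rose and 1394 (8.69%) fell, 17.2% in all. Across these genes the 2 changes correlated with a Pearson coefficient of 0.711 and a Spearman coefficient of 0.632, a description over genes, which are not independent. The change differed between the courses for 179 genes (1.12%) by the interaction term, with 101 changes more positive with cJun (0.63%) and 78 more negative (0.486%). Centring on the 9 housekeeping genes moves the median of all genes in this term by 0.278 and gives 141 more positive and 44 more negative. With any 1 of the 8 libraries left out, 62 to 92 genes were called. Of the genes named below, Tmprss11b, Fam107a, Lpl, Msmo1, Myof, Nr0b1, Zfp42, Scn10a, Apba2 and Oas2 were called in each of these 8 fits. Chrna1, Cnfn, Esrp2, Fxyd5, Gjb1, Ifit1, Slitrk1 and Tnfrsf11b lost their call in all 8, and every other one in at least 1, at adjusted p = 0.0509 to 0.216 (limma) where it was lost.

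**Figure D4:**
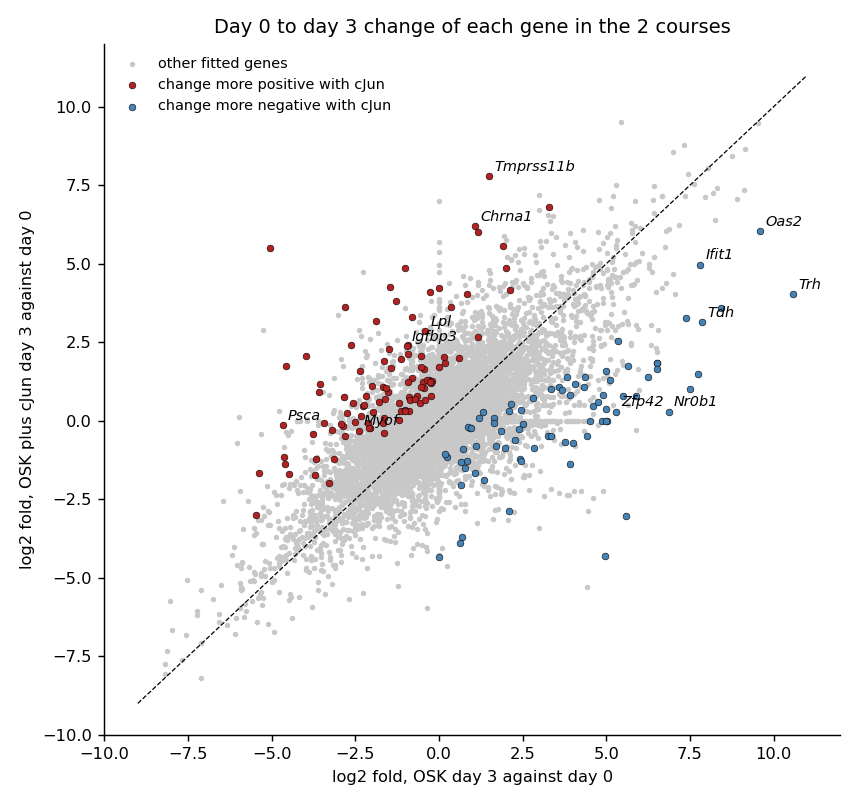
Log2 fold at day 3 against day 0 with OSK (horizontal) and with OSK plus cJun (vertical) for each of the 16038 fitted genes, with the 179 genes whose changes differed by the interaction term in colour and the line of equal change dashed. Tmprss11b, Chrna1 and Lpl lie above the line, and Nr0b1, Zfp42, Tdh and Trh lie below it.

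Some genes rose with cJun and were not called with OSK. Tmprss11b, a transmembrane serine protease of squamous epithelia (chromosome 5, 86657631 to 86676362, minus strand), was 16 and 20 on day 0, 851 and 4319 on day 1 and 3162 and 5504 on day 3 with cJun and 28 and 52 on day 0 and 95 and 128 on day 3 with OSK. The change differed by a log2 fold of 6.28 ± 0.78 (SE, adjusted p = 0.00111). Chrna1, the alpha subunit of the muscle acetylcholine receptor (chromosome 2, 73563215 to 73580338, minus strand), was 12 and 13 on day 0, 708 and 1364 on day 1 and 741 and 1327 on day 3 with cJun and 12 and 12 on day 0 and 26 and 27 on day 3 with OSK. Chrna1 had a difference of 5.12 ± 1.07 (SE, adjusted p = 0.0261) between the courses. Fam107a, an actin-associated protein, was 4 and 6 on day 0, 332 and 369 on day 1 and 419 and 340 on day 3 with cJun and 9 and 6 on day 0 and 17 and 19 on day 3 with OSK. Fam107a had a difference of 4.82 ± 0.80 (SE, adjusted p = 0.00627) between the courses. In these 3 genes the day 3 libraries with cJun lay above all 4 OSK libraries.

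Lpl was 573 and 300 on day 0 and 309 and 313 on day 3 with OSK, against the increase given above. Lpl had a difference of 3.28 ± 0.53 (SE, adjusted p = 0.00509) between the courses. Igfbp3 was 4303 and 3152 on day 0 and 1792 and 1987 on day 3 with OSK. Igfbp3 had a difference of 3.35 ± 0.59 (SE, adjusted p = 0.0119) between the courses. Msmo1, an enzyme of cholesterol synthesis, was 522 and 710 on day 0 and 1282 and 1737 on day 3 with cJun and 513 and 504 on day 0 and 361 and 430 on day 3 with OSK. Msmo1 had a difference of 1.66 ± 0.27 (SE, adjusted p = 0.00507) between the courses. Nptx2, a neuronal pentraxin, was 10 and 8 on day 0 and 137 and 58 on day 3 with cJun and 19 and 9 on day 0 and 4 and 2 on day 3 with OSK. Nptx2 had a difference of 5.05 ± 0.96 (SE, adjusted p = 0.0149) between the courses. Cnfn was 2 and 4 on day 0 and 0 and 1 on day 3 with OSK (adjusted p = 0.0469 for the difference), and Slitrk1, a neuronal adhesion protein, was 0 and 3 on day 0 and 62 and 52 on day 3 with cJun and 4 and 4 on day 0 and 1 and 2 on day 3 with OSK (adjusted p = 0.0469).

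Other genes fell with OSK and fell less, or were not called, with cJun. Myof, a membrane-repair protein counted among Yap targets, was 5488 and 4307 on day 0 and 3773 and 4013 on day 3 with cJun, where it was not called, and 3773 and 3410 on day 0 and 827 and 554 on day 3 with OSK. Myof had a difference of 2.08 ± 0.32 (SE, adjusted p = 0.00437) between the courses. Acvr1, a BMP receptor, was 469 and 688 on day 0 and 431 and 678 on day 3 with cJun and 658 and 811 on day 0 and 143 and 197 on day 3 with OSK. Acvr1 had a difference of 2.04 ± 0.37 (SE, adjusted p = 0.0129) between the courses. Igf1, a growth factor, fell in both courses, at 270 and 151 on day 0 and 56 and 70 on day 3 with cJun and 437 and 217 on day 0 and 10 and 4 on day 3 with OSK. Igf1 had a difference of 3.71 ± 0.70 (SE, adjusted p = 0.0148) between the courses. Tnfrsf11b, the decoy receptor osteoprotegerin, fell in both too, at 2256 and 1792 on day 0 and 232 and 272 on day 3 with cJun and 2122 and 1585 on day 0 and 48 and 34 on day 3 with OSK (adjusted p = 0.0299). These genes ended day 3 higher with cJun than with OSK in both replicates, and so did the next ones. Gap43, of growing axons, was 412 and 970 on day 0 and 774 and 350 on day 3 with cJun and 606 and 591 on day 0 and 81 and 51 on day 3 with OSK (adjusted p = 0.0216). Fxyd5, a regulator of the sodium pump, was 283 and 208 on day 0 and 616 and 486 on day 3 with cJun and 318 and 149 on day 0 and 17 and 18 on day 3 with OSK (adjusted p = 0.0455). Psca, a surface antigen, was 42 and 134 on day 0 and 52 and 88 on day 3 with cJun and 21 and 58 on day 0 and 0 and 1 on day 3 with OSK (adjusted p = 0.0218). Ndst4, of heparan sulfate synthesis, was 23 and 1 on day 0 and 27 and 18 on day 3 with cJun and 51 and 65 on day 0 and 2 and 1 on day 3 with OSK (adjusted p = 0.0271).

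Among the 78 changes more negative with cJun were 4 of the 29 pluripotency genes in the fit, and 2 when day 3 replicate 2 of either course was left out. Nr0b1, a nuclear receptor of the pluripotency network, was 0 and 1 on day 0, 2 and 0 on day 1 and 0 and 2 on day 3 with cJun and 0 and 0 on day 0 and 183 and 73 on day 3 with OSK (adjusted p = 0.00422 for the difference). Zfp42, the pluripotency marker Rex1, was 0 and 1 on day 0, 0 and 1 on day 1 and 0 and 2 on day 3 with cJun and 0 and 0 on day 0 and 33 and 44 on day 3 with OSK (adjusted p = 0.00312). Tdh, a threonine dehydrogenase on which ESC metabolism relies, was 0 and 0 on day 0, 0 and 2 on day 1 and 12 and 5 on day 3 with cJun and 0 and 2 on day 0 and 357 and 444 on day 3 with OSK (adjusted p = 0.0129). Zscan10, a zinc-finger factor of ESCs, was 0 and 1 on day 0, 0 and 0 on day 1 and 0 and 0 on day 3 with cJun and 0 and 2 on day 0 and 13 and 21 on day 3 with OSK (adjusted p = 0.0433). In each of the 4 genes both OSK libraries of day 3 lay above both libraries with cJun. Over all 29 fitted genes, 12 rose and none fell with OSK, while 4 rose and 1 fell with cJun. Tdh was among the 4, though it did not meet the filter. With cJun 8 of the 29 met the filter, of which 3 rose and 1 fell, and how many rose depended on single libraries. Tfcp2l1, a transcription factor of naive ESCs, was 1 and 6 on day 0, 13 and 8 on day 1 and 86 and 43 on day 3, with a log2 fold of 4.05 ± 0.95 (SE, adjusted p = 0.00617). L1td1, an RNA-binding protein of ESCs, was 115 and 142 on day 0, 264 and 227 on day 1 and 403 and 440 on day 3, and Sall1, a zinc-finger factor also used in kidney, was 31 and 15 on day 0, 68 and 57 on day 1 and 103 and 80 on day 3, and both rose. The gene that fell was Trim71, a repressor of messenger RNAs, at 12 and 12 on day 0, 8 and 4 on day 1 and 3 and 2 on day 3.

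Genes outside that list behaved likewise. Trh, the precursor of thyrotropin-releasing hormone, was 2 and 0 on day 0, 0 and 0 on day 1 and 27 and 28 on day 3 with cJun and 4 and 1 on day 0 and 3769 and 6116 on day 3 with OSK. Trh had a difference of -6.53 ± 1.12 (SE, adjusted p = 0.0103) between the courses. Trim9, a ubiquitin ligase of neurons, was 1 and 3 on day 0 and 6 and 10 on day 3 with cJun and 4 and 6 on day 0 and 514 and 560 on day 3 with OSK (adjusted p = 0.0134). Both genes had day 3 values with OSK far above those with cJun, as had those that follow. Scn10a, a sodium channel, was 0 and 0 on day 0 and 0 and 3 on day 3 with cJun and 0 and 0 on day 0 and 180 and 184 on day 3 with OSK (adjusted p = 0.00456). Apba2, an adaptor of synapses, was 2 and 3 on day 0 and 13 and 5 on day 3 with cJun and 0 and 0 on day 0 and 106 and 53 on day 3 with OSK (adjusted p = 0.00342). Gjb1, a gap-junction connexin, was 1 and 0 on day 0 and 1 and 2 on day 3 with cJun and 1 and 0 on day 0 and 56 and 123 on day 3 with OSK (adjusted p = 0.0296). Dmrtc2, of the doublesex-related family, was 0 and 0 on day 0 and 0 and 7 on day 3 with cJun and 0 and 1 on day 0 and 253 and 363 on day 3 with OSK (adjusted p = 0.0129). Btla, a lymphocyte receptor, was 20 and 51 on day 0 and 0 and 15 on day 3 with cJun and 0 and 15 on day 0 and 217 and 169 on day 3 with OSK (adjusted p = 0.0403). Esrp2, an epithelial splicing factor, was 30 and 23 on day 0 and 15 and 13 on day 3 with cJun and 14 and 12 on day 0 and 89 and 109 on day 3 with OSK, a difference of -3.70 ± 0.80 (SE, adjusted p = 0.0299), and it was the only one of 29 fitted epithelial genes whose change differed.

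The interferon increase was present in both courses. Of 42 fitted interferon genes, 40 rose with OSK, and 2 had a smaller increase with cJun by the interaction term. Oas2 was 2 and 3 on day 0 and 2711 and 2616 on day 3 with OSK. Oas2 had a difference of -3.56 ± 0.34 (SE, adjusted p = 8.51e-05) between the courses. Ifit1 was 2 and 2 on day 0 and 674 and 658 on day 3 with OSK. Ifit1 had a difference of -2.83 ± 0.60 (SE, adjusted p = 0.0267) between the courses. For Gbp2, which was 27 and 16 on day 0 and 7733 and 11676 on day 3 with OSK, the difference was -0.33 ± 1.47 (SE, adjusted p = 0.995). No gene of the contractile, collagen, matrix glycoprotein or crosslinking lists had a change that differed by this term. This count is over 90 fitted genes, of which 18 had an unadjusted p below 0.05 in limma. As only 1.12% of all 16038 genes were called, it shows nothing particular to these lists. Their median differences were 0.33, 0.21, 0.52 and 0.15 in that order, against -0.03 over all fitted genes. Tpm2, a tropomyosin, was 2189 and 1585 on day 0 and 399 and 190 on day 3 with cJun and 2306 and 1629 on day 0 and 83 and 29 on day 3 with OSK, and its difference of 2.52 ± 0.72 (SE, adjusted p = 0.126) missed the threshold.

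Each library was also placed between MEFs and ESCs, as the mean over genes of its scaled log2 value with MEFs at 0% and ESCs at 100%. Genes called between the 2 cell types with a log2 fold of at least 3 were used, 1526 high in MEFs and 1267 high in ESCs. Over genes high in MEFs, the OSK plus cJun libraries of day 0 stood at 7.04% and 10.26%, those of day 1 at 19.97% and 24.31%, and those of day 3 at 27.31% and 28.48%. Over genes high in ESCs, the same days gave 11.95% and 11.44%, then 17.12% and 19.53%, then 20.09% and 21.61%. In both sets the libraries of the 3 days did not overlap. The shift from day 0 to day 3 was 19.24% over genes high in MEFs (SD of replicates 1.71%) and 9.15% over genes high in ESCs (SD 0.8%). With 2 libraries against 2, an exact permutation test cannot go below 0.333. The OSK libraries at day 3 stood at 32.85% and 36.89% over genes high in MEFs and at 29.25% and 32.48% over genes high in ESCs. These lay above both day 3 libraries with cJun in either set. At day 0 the OSK libraries stood at 6.38% and 9.6% over genes high in MEFs. Over genes high in ESCs they stood at 11.59% and 15.0% at day 0, so the courses did not start level in each library.

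**Figure D5:**
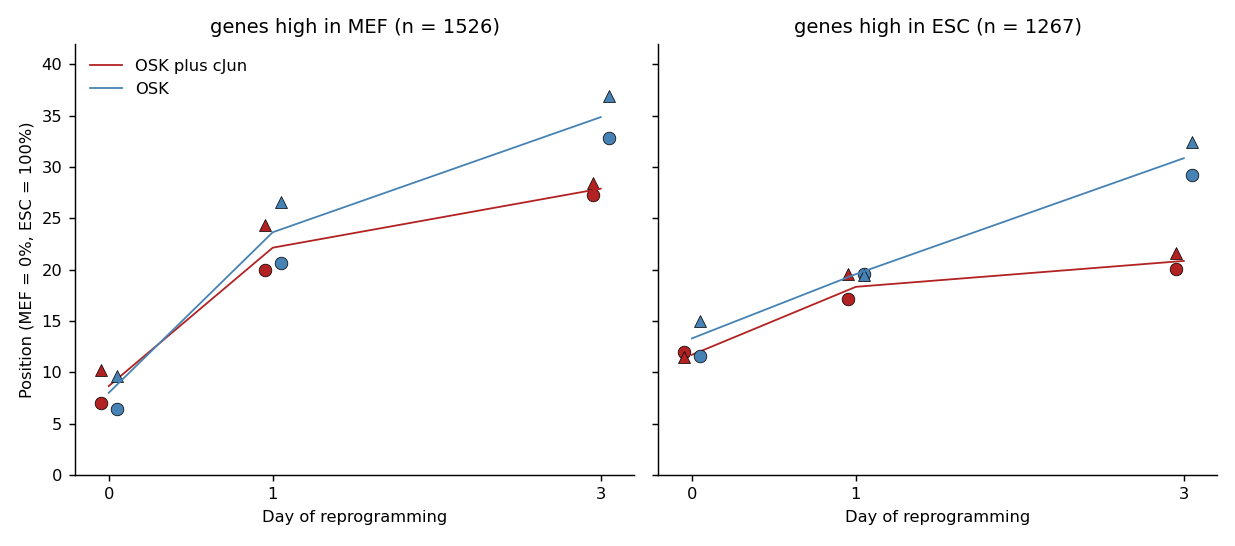
Position of each library between MEF (0%) and ESC (100%) against the day, over genes high in MEFs (left) and genes high in ESCs (right), for OSK plus cJun (red) and OSK (blue), with circles and triangles for replicates 1 and 2 and lines through the means. Both courses move up, and at day 3 the libraries with cJun lie below those with OSK in both panels.

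By single genes, 428 of the 1379 MEF genes that met the filter fell by day 3 with cJun and 84 rose. Of the 1267 ESC genes, 459 met it, and of these 142 rose and 18 fell. Over all 13300 genes 8.26% rose and 7.86% fell. MEF genes can meet the filter through day 0 alone and ESC genes through day 3 alone, which makes such calls likely. How many entered so was not counted, so these counts are partly set by the filter. The interaction called 26 of the 1526 MEF genes more positive and 2 more negative with cJun, and 6 of the 1267 ESC genes more positive and 30 more negative.

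Large parts of the housekeeping machinery were not called at day 3. Over all 13300 genes, 8.26% rose, 7.86% fell and 4516 had an unadjusted p below 0.05 in limma. Of 36 cell-cycle and replication genes 2 fell and none rose, Ccne1, a cyclin of the G1 to S transition, at 389 and 264 on day 0, 324 and 229 on day 1 and 121 and 84 on day 3, and Rrm1, of ribonucleotide reductase, at 2808 and 2808 on day 0, 2042 and 1183 on day 1 and 979 and 906 on day 3. None of 19 respiratory-chain genes was called by limma, and 2 had an unadjusted p below 0.05. None of 17 Sin3 complex genes was called, and 3 had an unadjusted p below 0.05. Of 21 glycolysis genes 2 fell and none rose, and 10 had an unadjusted p below 0.05 in limma. The 2 were Slc16a3, a lactate exporter, and Pfkl, a phosphofructokinase. Slc16a3 was 348 and 249 on day 0, 39 and 20 on day 1 and 14 and 12 on day 3. Pfkl was 415 and 379 on day 0, 174 and 199 on day 1 and 151 and 232 on day 3. Of 29 Hox genes, which record position along the body axis, 2 rose and none fell, a share near the 8.26% over all genes. They were Hoxb7, at 17 and 19 on day 0, 47 and 34 on day 1 and 46 and 35 on day 3, and Hoxd3, at 16 and 11 on day 0, 45 and 22 on day 1 and 81 and 39 on day 3. Hoxb7 lost its call without any 1 of the 4 libraries (adjusted p = 0.0845 to 0.261) and with housekeeping centring (0.0588), and Hoxd3 lost it without day 0 replicate 2 or day 3 replicate 1 (0.0694 and 0.116). The cell-cycle inhibitor Cdkn1a was 1564 and 1824 on day 0, 1674 and 1860 on day 1 and 1733 and 1733 on day 3 and was not called, and 1 of 26 genes of the p53 list rose and 2 fell.

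Some groups had a few members that moved, to be read against the 8.26% higher and 7.86% lower over all genes. Of 21 genes of the amino-acid response driven by ATF4, 7 fell and 2 rose: Phgdh, the entry enzyme of serine synthesis, was 913 and 879 on day 0, 404 and 251 on day 1 and 179 and 138 on day 3, a log2 fold of -2.50 ± 0.27 (SE, adjusted p = 5.03e-06), while Slc7a3, an arginine transporter, was 38 and 36 on day 0, 26 and 50 on day 1 and 230 and 248 on day 3. Of 12 hypoxia targets 5 fell, among them Epas1, a hypoxia-inducible factor, at 413 and 430 on day 0, 79 and 46 on day 1 and 43 and 41 on day 3. Of 18 imprinted growth genes 7 fell and 2 rose. H19, an untranslated RNA, was 2260 and 1609 on day 0, 453 and 184 on day 1 and 245 and 84 on day 3, and Snrpn, of spliceosomal particles, was 316 and 478 on day 0, 346 and 538 on day 1 and 1244 and 1616 on day 3. Snrpn rose with a log2 fold of 1.86 ± 0.26 (SE, adjusted p = 7.23e-05). Of 13 genes of DNA methylation and its removal, 2 rose and 1 fell. Tet2, a 5-methylcytosine dioxygenase, was 135 and 141 on day 0, 420 and 649 on day 1 and 435 and 538 on day 3, a log2 fold of 1.80 ± 0.31 (SE, adjusted p = 0.000483), reached by day 1. The 1 that fell was Tet1, its relative, at 20 and 26 on day 0, 11 and 8 on day 1 and 2 and 4 on day 3. The other that rose was Zfp57, a factor that keeps imprints, at 138 and 151 on day 0, 269 and 347 on day 1 and 252 and 344 on day 3, and it lost its call without any 1 of the 4 libraries (adjusted p = 0.0569 to 0.229). Of 22 polycomb genes 3 rose and none fell (1 without day 0 replicate 1), with Ezh1, a histone methyltransferase, at 127 and 181 on day 0, 200 and 263 on day 1 and 347 and 403 on day 3.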

How the data were processed

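Libraries were made with the TruSeq RNA kit from TRIzol-extracted RNA and read on a NextSeq sequencer, per the labels' protocols. The submitters' processing notes name bcl2fastq, Bowtie2, RSEM and the mm10 build. The deposited table holds a normalised score for each gene and library as a whole number. The step that the authors used to normalise these scores is not given in the sources used here. The 26 libraries have totals between 4619641 and 4624161, each has 10 genes at the highest value of 21544, and at any rank the libraries differ by at most 2. All libraries therefore share 1 distribution of values, the sequencing depth is unknown, and a change that most genes share cannot be seen.

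Values were taken as log2(value + 1), which understates the change of low genes. Genes with a value of 10 or more in at least 2 of the 26 libraries (16038) were fitted with limma 3.58.1 in R 4.3.3, with 1 mean for each of 13 groups and a variance estimate that follows the mean and is robust to outlying genes. P-values were adjusted by the Benjamini-Hochberg method over the 16038 genes, and a gene was called where the adjusted p was below 0.05 and the log2 fold was 1 or more in size. The comparisons among days of the OSK plus cJun course were counted over 13300 genes. The midpoint and the between-course comparisons were counted over all 16038. The procedure was tested on simulated data. No count model was used, since the scores are not counts. A single gene compared 2 against 2 by an exact two-sided permutation test could not fall below p = 0.333.

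The named genes were Pou5f1, Sox2, Klf4, Jun, Myc and Sap30, and then the called genes with the largest log2 fold in each direction. These were 12 each way for day 3 against day 0, 6 each way for the steps through day 1, 5 each way for day 1 against the midpoint and 8 each way between the courses. They had a mean value of at least 50 in the highest group, and within the course their groups did not overlap. From each gene list came the 4 or fewer members whose adjusted p was lowest, or the members with the highest mean where none was called, and further members stand with their values. The genes, lists and tests were chosen with earlier results of these data known. Genes with no symbol (159) were fitted but not named. Promoter sequences are from RefSeq. Alternatives tried were another added value, other filters, other sets of libraries, a plain variance estimate and centring on housekeeping genes. Further ones were the replicate number of the OSK plus cJun libraries as a block, no limit on the fold, and each library left out in turn. Some genes that the naming rule or the lists hold are not reported here.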

Additional observations from a re-analysis of the deposited data

Results flagged for a closer look

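The day 0 to day 3 change of 179 genes differed between the course with OSK plus cJun and the course with OSK alone, tested as the difference of the 2 changes within limma over 16038 genes. The difference rests on 2 libraries for each of 4 groups. Adjusted p-values (limma, Benjamini-Hochberg) of the named genes stand in parentheses. A higher change with cJun was called for Tmprss11b (0.00111), Myof (0.00437), Msmo1 (0.00507), Lpl (0.00509), Fam107a (0.00627), Igfbp3 (0.0119), Acvr1 (0.0129), Igf1 (0.0148), Nptx2 (0.0149), Gap43 (0.0216), Psca (0.0218), Chrna1 (0.0261), Ndst4 (0.0271), Tnfrsf11b (0.0299), Fxyd5 (0.0455), Cnfn (0.0469) and Slitrk1 (0.0469). A lower change with cJun was called for Oas2 (8.51e-05), Zfp42 (0.00312), Apba2 (0.00342), Nr0b1 (0.00422), Scn10a (0.00456), Trh (0.0103), Dmrtc2 (0.0129), Tdh (0.0129), Trim9 (0.0134), Ifit1 (0.0267), Gjb1 (0.0296), Esrp2 (0.0299), Btla (0.0403) and Zscan10 (0.0433). The values of these genes in each library are given in the comparison of the 2 courses or with the gene list they belong to.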

How the results depend on the processing

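Within the OSK plus cJun course, 2143 genes were called at day 3 against day 0, and 1531 to 1684 with 1 library left out. At day 1 against day 0 the 1246 calls became 760 when only the libraries compared were fitted and 631 to 931 with 1 library left out. They fell by more than 1.5 times without day 1 replicate 2 (631), day 0 replicate 2 (717) or day 0 replicate 1 (790). At day 3 against day 1 the 276 calls became 55 when only the libraries compared were fitted, and 95 to 233 with 1 library left out, with 95 without day 1 replicate 1, 135 without day 3 replicate 2 and 137 without day 3 replicate 1. For day 1 against the midpoint, 238 calls became 57 to 164, with 57 without day 1 replicate 2, 70 without day 1 replicate 1, 120 without day 0 replicate 2, 124 without day 3 replicate 2 and 147 without day 3 replicate 1. Between the courses, 179 calls became 110 with 0.1 added before the log2, 301 with 10 added and 62 to 92 without any 1 of the 8 libraries. These fits have fewer libraries or another log scale, and beyond that the cause was not tested. The shift from MEFs towards ESCs between days 0 and 3, 19.24 percentage points over genes high in MEFs, was 20.97 with 10 added and 13.95 as a median over genes. The shift over genes high in ESCs, 9.15, was 10.07 and 7.31. Centring on the housekeeping genes moved all log2 folds by 0.05 at day 3 against day 0, by 0.11 at day 3 against day 1 and by 0.28 between the courses.

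The labels give replicate numbers 1 and 2 without saying that they pair libraries. Deviations of same-numbered libraries from their group means correlated across genes, at 0.192 to 0.331 between the 5 groups of the 2 courses. The block fit gave the replicate number a term in the OSK plus cJun libraries only, and the OSK libraries were not blocked. With this block, 2182, 1297 and 307 genes were called for day 3 against day 0, day 1 against day 0 and day 3 against day 1. For day 1 against the midpoint and the difference between courses the counts were 257 and 166. Of the named genes the block ended the call of Hoxb7 at day 3 against day 0 (adjusted p = 0.0503) and of Btla, Cnfn, Fxyd5, Slitrk1 and Zscan10 between the courses (0.0531 to 0.0589).

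The other 285 results are each a named gene in 1 comparison. Apart from the genes always named, uncalled genes were not followed. Other filters, other groups in the fit, a plain variance estimate and the fold limit leave the log2 fold itself unchanged. No direction changed in 4422 alternative values, an outcome largely fixed in advance by this choice of genes and alternatives. The call was kept or stayed absent in 4007 of them and was lost in 415, of which 287 came from leaving out 1 library and 128 from the other alternatives. At day 3 against day 0, fitting only the libraries compared ended the call of Cd34, Dhcr7, Egfl7, Grhl3, Hoxb7, Hoxd3, Igf1, Kdr, Mmp10, Mpeg1, Pfkl, Rapgef5, Runx1, Sall1, Tdh, Thy1, Trim71 and Zfp57 (adjusted p = 0.0503 to 0.127). With 0.1 added it was that of Egfl7, Hoxb7, L1td1, Nefm, Runx1 and Tfcp2l1 (adjusted p = 0.0514 to 0.212), and with 10 added that of Egfl7, Hoxb7, Tdh, Trh, Trim71 and Zfp57 (adjusted p = 0.0139 to 0.0863), where a log2 fold under 1 also ends a call. Plain moderated variance ended that of Tubb3 and Zfp57 (adjusted p = 0.055 to 0.0559). Between the courses, 0.1 added ended the call of Btla, Chrna1, Dmrtc2, Esrp2, Fam107a, Fxyd5, Gjb1, Ndst4, Nr0b1, Scn10a, Slitrk1, Tdh, Trh, Trim9, Zfp42 and Zscan10 (adjusted p = 0.0619 to 0.657), and fitting only the libraries compared that of Acvr1, Apba2, Btla, Dmrtc2, Gap43, Gjb1, Igf1, Msmo1, Ndst4, Psca, Slitrk1, Tdh, Zfp42 and Zscan10 (adjusted p = 0.0518 to 0.156). Depth is unknown, so low values cannot be given a counting error, and 2 libraries a group limit every statement on spread.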
